A study of Mus musculus with 4 samples.

Results

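The 10 genes described here encode receptors of selective autophagy, the ubiquitin-binding cargo receptors and the ER-phagy receptors. They were chosen by gene symbol, as 10 of the 17746 symbols in the deposited table, and all 10 were found there. Autophagy encloses parts of the cytoplasm in a double membrane and delivers them to the lysosome. A selective receptor holds its cargo on one side and a lipid-bound ATG8 protein (the LC3 and GABARAP proteins) of the growing membrane on the other. SQSTM1 (p62), NBR1, OPTN and TAX1BP1 bind ubiquitin chains on aggregates, damaged organelles or bacteria, and TOLLIP joins a ubiquitin-binding CUE domain to an ATG8-binding motif. CALCOCO1 serves in the turnover of the endoplasmic reticulum and the Golgi, WDFY3 (ALFY) is a large scaffold in aggregate clearance, and RETREG1 (FAM134B), CCPG1 and TEX264 sit in the membrane of the endoplasmic reticulum and take parts of it to the lysosome. Some receptors are degraded with their cargo, so a protein level need not follow the transcript level measured here.

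RNA was sequenced from lung tumour cells of RPΔG mice, which carry Rb1fl/fl and Trp53fl/fl together with the GFP-LC3-RFP-LC3ΔG knock-in reporter, a mouse model of small cell lung cancer. Live cells positive for EpCAM and RFP were sorted into 2 GFP-negative and 2 GFP-positive libraries, so both groups share the floxed alleles, the reporter and the first gates. The comparison asks how tumour cells of unequal autophagic flux differ, but its direction is in conflict between sources: the design text gives high flux to GFP-negative cells and the sample titles give it to the GFP-positive libraries. The groups are therefore called by GFP only, and no statement on flux is made. The labels name neither the source of the recombinase nor the age of the mice, and do not tie the 2 libraries of each group to different animals, so that p-values measure the spread between these libraries alone, which may be technical.

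The libraries held 51994432 to 73997175 counts. GFP-positive replicate 1 stood apart, with counts for 34.2% of the symbols, against 88.5% to 99.3% in the other 3 libraries. Markers of other cell types were present in the sorted cells. The summed level of 15 macrophage and myeloid markers was 1298 and 22347 CPM (counts per 1e6 after TMM scaling of library size) in GFP-negative replicates 1 and 2. In GFP-positive replicates 1 and 2 it was 122864 and 70512 CPM, with Itgax at 0 counts in GFP-positive replicate 1. Of the 15, edgeR called 3 lower. Beside this list and those below, 0.0982% of all 16301 tested genes were called in either direction. The 4 hepatocyte markers in the table summed to 23.5 and 319 CPM in GFP-negative and 27262 and 159 CPM in GFP-positive libraries, and edgeR called 3 of the 4 lower. These calls rested on GFP-positive replicate 1. Alb, Apoa2 and Cyp2e1 had 190604, 680315 and 73910 counts there, against 0, 197 and 52 counts in GFP-positive replicate 2. The 5 erythroid markers summed to 1572 and 5389 CPM in GFP-negative libraries, against 45369 and 14332 CPM in GFP-positive libraries, and 2 of the 5 were called lower. The 6 T and NK cell markers summed to 23.0 and 65.2 CPM in GFP-negative and 429 and 175 CPM in GFP-positive libraries, with 0 called. In GFP-positive replicate 1, 5 of the 6 had 0 counts and the sum was Cd2 alone. Sums of the endothelial, alveolar type 2 and fibroblast markers overlapped between the groups, with 0 called. Nearly all of the endothelial sum in GFP-positive replicate 1 was Pecam1, with 3 of the 5 markers at 0 counts. The alveolar type 2 sum there was nearly all Sftpc, with 4 of the 6 markers at 0 counts. The 6 fibroblast markers summed to 0.16 CPM in that library, with 4 at 0 counts. The 8 B and plasma cell markers summed to 3176 and 21444 CPM in GFP-negative and 1890 and 6687 CPM in GFP-positive libraries, with 0 called. In GFP-positive replicate 1, 6 of the 8 had 0 counts and nearly all of the sum was Igkc. The 12 neuroendocrine markers of the tumour cells summed to 5399 and 3258 CPM in GFP-negative libraries and to 3531 and 1573 CPM in GFP-positive libraries, and 2 of them (Chga and Chgb) had 0 counts in GFP-positive replicate 1. Epcam, the gene of the sort marker, had 157 and 33.6 FPKM in GFP-negative libraries and 27.7 and 24.3 FPKM in GFP-positive libraries. Reads from Rb1 and Trp53 cannot check the deletion at the level of whole genes. Rb1 had 2.02 and 0 FPKM in GFP-negative libraries and 0 and 0.54 FPKM in GFP-positive libraries, and Trp53 had 4.36 and 0.89 FPKM in GFP-negative and 3.25 and 12.5 FPKM in GFP-positive libraries. In bulk RNA, fewer cells of a type and less RNA per cell cannot be told apart.

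Below, a level is the authors' FPKM (fragments scaled by gene length and by the library total), given for replicate 1 and then replicate 2 of a group, and it may be compared between genes. A log2 change is the fitted GFP-negative minus GFP-positive difference of counts from edgeR's quasi-likelihood test with TMM scaling and Benjamini-Hochberg adjustment over all tested genes, with its SE. The FPKM values carry no TMM scaling, so a fold read from them differs from the fitted one.

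The promoters of 4 receptors are shown because these genes mark both ends of the comparison: Sqstm1, Tex264 and Calcoco1 had fitted log2 changes below 0, and Tollip had the highest one above 0. Each line gives the 250 bases before the RefSeq start (GRCm38.p6, the same assembly as mm10), 5′ to 3′ on the strand of the gene, with every GC box (GGGCGG on either strand, the core bound by SP-family factors) in capitals.
Sqstm1, chr11:50210821-50211070, minus strand: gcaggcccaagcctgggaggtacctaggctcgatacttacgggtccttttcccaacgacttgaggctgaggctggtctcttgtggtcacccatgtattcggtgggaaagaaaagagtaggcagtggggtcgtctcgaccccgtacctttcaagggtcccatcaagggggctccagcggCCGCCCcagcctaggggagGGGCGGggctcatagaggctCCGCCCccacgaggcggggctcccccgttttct
Tex264, chr9:106685953-106686202, minus strand: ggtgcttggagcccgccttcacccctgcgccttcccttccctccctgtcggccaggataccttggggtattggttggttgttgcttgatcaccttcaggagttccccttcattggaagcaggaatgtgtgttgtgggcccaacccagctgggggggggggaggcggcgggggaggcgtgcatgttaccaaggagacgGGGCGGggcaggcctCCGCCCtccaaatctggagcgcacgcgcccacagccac
Calcoco1, chr15:102722179-102722428, minus strand: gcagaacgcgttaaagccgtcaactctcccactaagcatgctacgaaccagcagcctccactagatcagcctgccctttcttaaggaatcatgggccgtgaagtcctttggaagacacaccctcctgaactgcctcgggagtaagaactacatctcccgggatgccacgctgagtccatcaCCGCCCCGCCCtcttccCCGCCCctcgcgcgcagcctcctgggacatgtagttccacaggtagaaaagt
Tollip, chr7:141902462-141902711, minus strand: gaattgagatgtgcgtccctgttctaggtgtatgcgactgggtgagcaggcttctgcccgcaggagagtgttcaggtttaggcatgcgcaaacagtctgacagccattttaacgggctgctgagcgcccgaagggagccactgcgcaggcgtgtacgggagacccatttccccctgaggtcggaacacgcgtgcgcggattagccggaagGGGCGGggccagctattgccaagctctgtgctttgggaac
A RefSeq window was matched for 9 of the receptors, and 7 of the 9 held a GC box, against 32.7% of all 32851 windows of the same length. The Sqstm1 and Calcoco1 windows held 3 matches each, Tex264 held 2 and Tollip 1, so the motif occurred in genes on either side of the comparison. In Calcoco1 a pair of matches overlaps by 1 base and forms 1 run of capitals. The Tollip window belongs to a RefSeq start that lies inside the GENCODE span of the gene given with its values. The letters CACGTG (the core of the element bound by TFEB), TGACNNNGC (the antioxidant response element bound by NRF2) and TATAAA were searched on both strands and occurred in 0 of the 9 windows. These letters occurred in 6.02%, 10.2% and 12.4% of all windows, in that order. A match to letters is a description and no measured binding site.

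Sqstm1 was the most abundant receptor in all 4 libraries and lower in both GFP-negative libraries than in either GFP-positive library. Its FPKM was 155 and 72.3 in GFP-negative libraries, against 291 and 225 in GFP-positive libraries. The groups averaged 113 ± 58.3 FPKM in GFP-negative and 258 ± 46.8 FPKM in GFP-positive libraries (SD, n = 2 each). SQSTM1 gathers ubiquitinated cargo into condensates and also binds KEAP1, the inhibitor of the transcription factor NRF2. The fitted log2 change was -1.86 ± 1.31 (SE, n = 2 per group, edgeR adjusted p = 1.0, unadjusted p = 0.158), so the difference did not pass the test. It remained below 0 under every setting tried, between -8.14 with upper quartile scaling and -1.18 with library totals. Upper quartile scaling gave similar values for Tex264 (-7.71) and Gabarap (-7.85), so the -8.14 says little about Sqstm1 itself. The gene lies on chromosome 11 (mm10) from 50199366 to 50210827, and its level was above that of 98.0% and 94.0% of all symbols in the GFP-negative libraries and of 98.8% and 98.4% in the GFP-positive libraries. Macrophage and erythroid markers lay in the same order of groups, at the sums given above. The T and NK cell sum did too, but in GFP-positive replicate 1 it was Cd2 alone. The part of these cells in the Sqstm1 difference was not tested.

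None of the 10 receptors passed the test: edgeR called 0 of 10 at an adjusted p under 0.05, where 0.0982% of the 16301 tested genes were called. At an unadjusted p under 0.05 the count was again 0 of 10, against 3.1% of all tested genes. DESeq2's Wald test called 0 of 10 and 0.386% of all genes. A p above the threshold does not show that levels were alike, since the SE of the log2 change ran from 1.31 for Sqstm1 to 4.83 for Wdfy3. Fitted changes were above 0 for 7 receptors, with a background of 68.1% of tested genes above 0. The median over the 10 was 1.51 (interquartile range -0.96 to 2.32), against 0.91 for all tested genes. The choice of scaling moved the fitted changes. The median over all genes was 1.12 with DESeq2 size factors, 0.43 with upper quartile scaling and 1.33 with library totals. The receptors had medians of 1.80, 0.65 and 2.02, in that order. These medians hide larger moves with upper quartile scaling. Tex264 went from -1.35 to -7.71 and Tax1bp1 from 1.67 to -4.08, both with counts in GFP-positive replicate 1. Retreg1, at 0 counts in that library, went from 1.41 to 1.33.

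**Figure D1:**
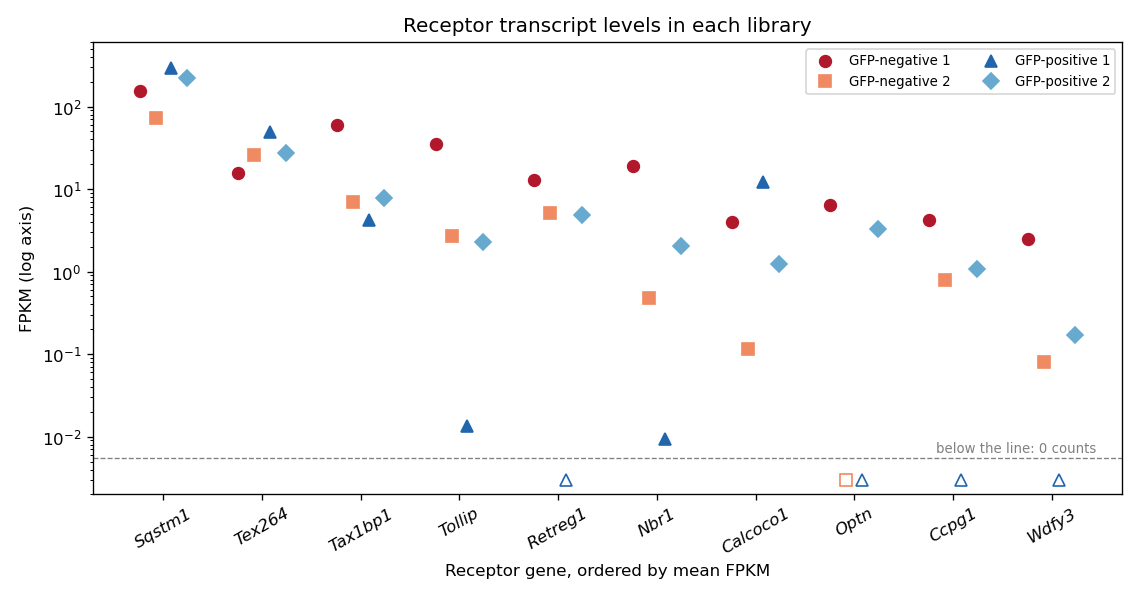
FPKM on a log axis for each receptor gene in each of the 4 libraries, with genes ordered by their mean FPKM and open symbols below the dashed line for 0 counts. Sqstm1 is highest in every library, and GFP-positive replicate 1 has 4 genes at 0 counts and 2 (Nbr1 and Tollip) near 0.01 FPKM.

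Which receptors had counts differed within both groups. In GFP-negative replicate 1 all 10 receptors had counts, and 7 of the 10 had their highest FPKM there, where 50.6% of tested genes had theirs. In GFP-positive replicate 1 the genes Optn, Wdfy3, Retreg1 and Ccpg1 had 0 counts, and Nbr1 and Tollip had 4 counts each. Of all tested genes 64.4% had 0 counts in that library. There, 0 counts allow a level of up to 0.013 FPKM for Optn, 0.012 for Retreg1, 0.0067 for Ccpg1 and 0.0033 for Wdfy3, taking 3 counts as the limit and covering counting error only. Counts after PCR amplification without molecular identifiers are not independent molecules. The remaining 4 receptors, Sqstm1, Tex264, Tax1bp1 and Calcoco1, were present in that library. All but Tax1bp1, 3 of the 10 receptors, had their highest FPKM there, where 11.5% of tested genes had theirs.

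Among the ubiquitin-binding receptors other than Sqstm1, the highest level was always in GFP-negative replicate 1, and GFP-negative replicate 2 lay below GFP-positive replicate 2 for 3 of the 4. Tax1bp1, a receptor of aggregates and of the inflammatory signalling complexes it helps to shut down, had 59.2 and 7.02 FPKM in GFP-negative libraries, against 4.28 and 7.90 FPKM in GFP-positive libraries. The groups overlapped, since GFP-negative replicate 2 lay between the GFP-positive libraries. Its log2 change of 1.67 ± 2.202 was 0.043 without GFP-negative replicate 1 and turned to -4.08 with upper quartile scaling. Nbr1, which works with SQSTM1 in aggregates and in the turnover of peroxisomes, had 19.1 and 0.48 FPKM in GFP-negative libraries and 0.0093 and 2.03 FPKM in GFP-positive libraries. Both groups thus held one high and one low library for Nbr1. Its log2 change was 2.54 ± 4.22 and became -1.10 without GFP-negative replicate 1. These genes lie on chromosome 6 (mm10) from 52713729 to 52766780 for Tax1bp1 and on chromosome 11 from 101552149 to 101581951 for Nbr1.

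Tollip had its groups apart, with both GFP-negative libraries above both GFP-positive libraries. It had 35.3 and 2.72 FPKM in GFP-negative libraries and 0.014 and 2.31 FPKM in GFP-positive libraries. The gap between the groups was therefore small beside the gap within either of them: GFP-negative replicate 1 was 12.98-fold above replicate 2. Its log2 change of 3.36 ± 4.03 was the highest among the receptors (edgeR adjusted p = 1.0), and leaving out GFP-negative replicate 1 gave 1.19. Optn, the receptor of damaged mitochondria and bacteria that the kinase TBK1 activates, had 6.37 and 0 FPKM in GFP-negative libraries and 0 and 3.29 FPKM in GFP-positive libraries. Each group held one library with 2008 or 973 counts and one with none. The log2 change of Optn, 0.21 ± 4.44, thus sums over opposite patterns, and it was -11.74 without GFP-negative replicate 1 and 12.33 without GFP-positive replicate 2. Tollip lies on chromosome 7 (mm10) from 141874813 to 141918507 and Optn on chromosome 2 from 5020642 to 5064051.

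Calcoco1 and Wdfy3 were low in most libraries and spread widely within groups. Calcoco1 had 4.03 and 0.12 FPKM in GFP-negative libraries, against 12.2 and 1.23 FPKM in GFP-positive libraries. The groups overlapped, and replicate 1 was the higher library of each group, by 34.6-fold among GFP-negative and 9.87-fold among GFP-positive libraries. Its log2 change of -2.70 ± 4.12 was 0.028 without GFP-positive replicate 1. Wdfy3, the longest of these genes, was the least abundant, at 2.49 and 0.080 FPKM in GFP-negative and 0 and 0.17 FPKM in GFP-positive libraries. GFP-negative replicate 2 lay between the GFP-positive libraries, and the log2 change of 3.19 ± 4.83 became -0.13 without GFP-negative replicate 1. Calcoco1 lies on chromosome 15 (mm10) from 102706777 to 102722178 and Wdfy3 on chromosome 5 from 101832956 to 102069921.

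The 3 ER-phagy receptors did not share a direction. Tex264, the most abundant of them, had 15.8 and 26.0 FPKM in GFP-negative libraries, against 48.9 and 27.4 FPKM in GFP-positive libraries. The groups were apart, with GFP-negative the lower one, but GFP-negative replicate 2 and GFP-positive replicate 2 were close to each other. The log2 change of Tex264 was -1.35 ± 2.59 and -0.66 without GFP-positive replicate 1. Retreg1, a reticulon-like protein that bends sheets of the endoplasmic reticulum, had 13.0 and 5.20 FPKM in GFP-negative and 0 and 4.85 FPKM in GFP-positive libraries. Its groups were also apart, in the other direction and again by a small gap between the replicates 2, with a log2 change of 1.41 ± 4.24 and 0.40 without GFP-positive replicate 1. Ccpg1, an ER-phagy receptor whose transcription is known to be raised by ER stress, had 4.19 and 0.79 FPKM in GFP-negative and 0 and 1.08 FPKM in GFP-positive libraries. GFP-negative replicate 2 lay between the GFP-positive libraries, and the log2 change was 1.60 ± 4.53. Tex264 lies on chromosome 9 (mm10) from 106658746 to 106685927, Retreg1 on chromosome 15 from 25843180 to 25973687 and Ccpg1 on chromosome 9 from 72985429 to 73016340.

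In all, 2 receptors (Sqstm1 and Tex264) had both GFP-negative libraries below both GFP-positive libraries in FPKM, as had 4.53% of the tested genes. A further 2 (Tollip and Retreg1) had them above, as had 31.6% of the tested genes. No exact test of single values was run, since a comparison of 2 with 2 libraries has too few arrangements to pass.

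**Figure D2:**
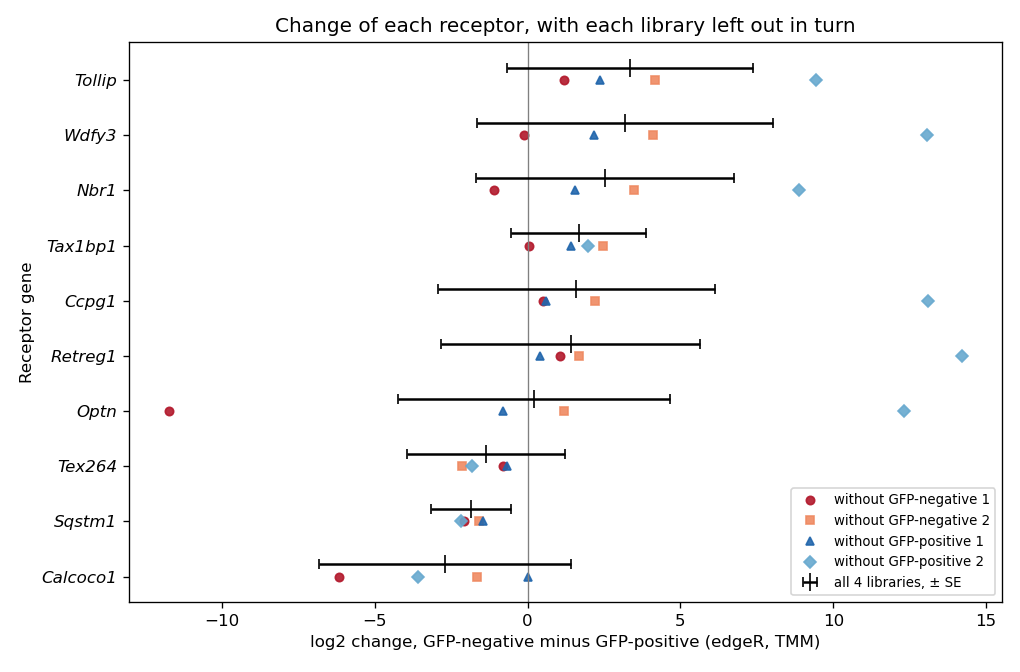
Fitted log2 change of each receptor, GFP-negative minus GFP-positive, with all 4 libraries (black, ± SE) and with each library left out in turn (coloured symbols). Sqstm1 and Tex264 stay below 0 in every fit shown, and Tax1bp1, Tollip, Retreg1 and Ccpg1 stay above 0. Without GFP-positive replicate 2, 6 receptors move to log2 changes of 8.87 or more.

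A single library decided whether receptors were called. A fit without 1 library leaves its group with a lone library, which is assumed to vary like the pair of the other group, so a p-value from such a fit rests on that pair alone. Without GFP-positive replicate 2, the GFP-positive group was the library with most zeros alone, and 5 receptors were called higher: Tollip, Retreg1, Nbr1, Ccpg1 and Wdfy3, with log2 changes of 8.87 to 14.22 and edgeR adjusted p = 0.011 to 0.0211. In that fit 42.7% of 16804 genes were called higher, so 5 of 10 is near the background, and Optn just missed the threshold (edgeR adjusted p = 0.0501). Without GFP-positive replicate 1, 0 receptors were called and the median of the 10 was 0.50, against 0.29 for all genes. Without GFP-negative replicate 1 the median was -0.47, against 0.40 for all genes, and 4 of the 10 receptors remained above 0.

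Because FPKM is scaled by gene length, the make-up of the receptor transcripts can be read within each library, where library scaling cancels. Sqstm1 made up 49.2% and 63.0% of the summed FPKM of the 10 receptors in GFP-negative libraries, against 81.7% and 81.8% in GFP-positive libraries. The GFP-positive libraries were nearly equal in this share although one of them lacked counts for 4 receptors, and both GFP-negative libraries lay below them. What took the place of Sqstm1 differed between the GFP-negative libraries. In replicate 1 Tax1bp1 held 18.8% and Tollip 11.2%, and in replicate 2 Tex264 held 22.7%. The summed FPKM of the 9 receptors other than Sqstm1 was 159 and 42.4 in GFP-negative libraries and 65.4 and 50.2 in GFP-positive libraries, so these sums overlapped. The summed FPKM of all 10 was 314 and 115 in GFP-negative libraries and 357 and 275 in GFP-positive libraries. Shares in 1 library add to a whole, so a lower share of Sqstm1 can come from less Sqstm1 or from more of the others.

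**Figure D3:**
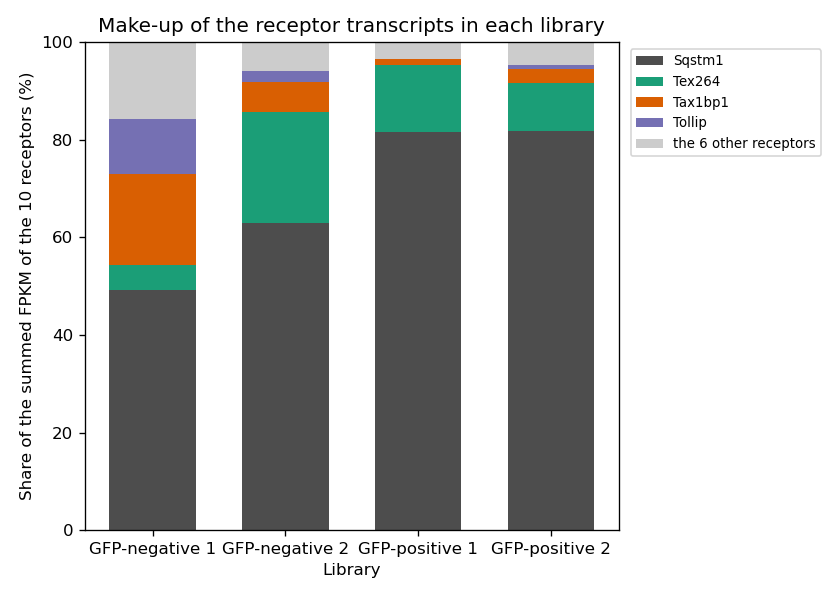
Share of each receptor in the summed FPKM of the 10 receptors, in percent, for each library. Sqstm1 takes 49.2% and 63.0% in GFP-negative libraries and 81.7% and 81.8% in GFP-positive libraries.

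By mean FPKM over the 4 libraries the order was Sqstm1 (186), Tex264 (29.5), Tax1bp1 (19.6), Tollip (10.1), Retreg1 (5.77), Nbr1 (5.41), Calcoco1 (4.38), Optn (2.42), Ccpg1 (1.51) and Wdfy3 (0.68). Only the first place was common to all libraries: Tex264 was second in GFP-negative replicate 2 and in both GFP-positive libraries, and in GFP-negative replicate 1 it came behind Tax1bp1, Tollip and Nbr1 too. From Tex264 downward, the ranges over the libraries of each pair of neighbours overlapped.

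Genes that act with the receptors were read from related lists, and 0 members of any list passed edgeR's test at an adjusted p under 0.05 (1 NRF2 list gene, Ftl1, and 1 ubiquitin gene, Ubb, had an unadjusted p under 0.05). DESeq2's Wald test also called 0. Without GFP-positive replicate 2, 29 of the 73 tested genes of these lists were called, Tbk1 and Keap1 among them, against 45.2% of all genes in that fit. SQSTM1 is linked to the KEAP1 and NRF2 pathway. The gene of the transcription factor itself lay in the same order of groups as Sqstm1 and the macrophage and erythroid markers. Nfe2l2, which encodes NRF2, had 18.9 and 9.69 FPKM in GFP-negative libraries, against 83.1 and 66.4 FPKM in GFP-positive libraries. These groups were well apart, with a log2 change of -3.04 ± 2.11 (edgeR adjusted p = 1.0). The list of Nfe2l2 and its targets had no common direction: of 12 members 7 had fitted changes below 0 and 5 above, with a median of -0.09. Ftl1, the ferritin light chain, had the smallest p, at 1664 and 11675 FPKM in GFP-negative and 9864 and 17721 FPKM in GFP-positive libraries (log2 change -1.28 ± 0.41, adjusted p = 0.946 by edgeR). Ftl1 passed with the replicate block (log2 change -2.13, edgeR adjusted p = 1.89e-08) and without GFP-negative replicate 2 (log2 change -3.88). Nqo1, the quinone reductase often used as an NRF2 readout, had 0.999 and 0.91 FPKM in GFP-negative and 0 and 1.55 FPKM in GFP-positive libraries, and Keap1 had 14.4 and 2.61 FPKM in GFP-negative and 0 and 5.96 FPKM in GFP-positive libraries. The signs of Nqo1 and Keap1 changed between settings.

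The kinases and adaptors of the receptors (11 genes) had 8 fitted changes above 0 and 3 below, with a median of 0.98, and 8 of them had 0 counts in GFP-positive replicate 1. Tbk1, which phosphorylates OPTN and SQSTM1, had 9.91 and 0.87 FPKM in GFP-negative and 0 and 5.74 FPKM in GFP-positive libraries, one high and one low library in each group, as for Optn. Tank, an adaptor of TBK1, had 4.75 and 5.67 FPKM in GFP-negative and 32.1 and 9.42 FPKM in GFP-positive libraries (log2 change -2.57 ± 2.70). Ikbke, a kinase related to TBK1, had 0.046 and 0.0052 FPKM in GFP-negative and 0 and 2.65 FPKM in GFP-positive libraries, so GFP-positive replicate 2 alone set its log2 change of -6.24.

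The ATG8 genes, whose products the receptors bind, had counts in every library. Gabarap had 119 and 213 FPKM in GFP-negative libraries, against 433 and 284 FPKM in GFP-positive libraries, groups that did not overlap (log2 change -1.57 ± 1.41, edgeR adjusted p = 1.0). Map1lc3b had 40.4 and 108 FPKM in GFP-negative and 133 and 72.5 FPKM in GFP-positive libraries, with overlap, and any reads from the LC3 sequence in the reporter may be counted with it. Of the 5 genes 3 had fitted changes above 0 (median 0.47). Ubb, a gene of ubiquitin, had 2310 and 16484 FPKM in GFP-negative and 2190 and 5224 FPKM in GFP-positive libraries (log2 change 1.13 ± 0.45, adjusted p = 1.0 by edgeR, unadjusted p = 0.0128), and a single library set its direction: the log2 change was 2.01 without GFP-negative replicate 1 and -1.49 without GFP-negative replicate 2. Ubb was called in both of these fits, where the spread came from the GFP-positive pair alone.

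Further selective autophagy receptors (12 genes tested of 13 listed) had 5 fitted changes above 0 and 7 below, with a median of -0.10. Ncoa4, the receptor that takes ferritin to the lysosome, had 6.26 and 0.92 FPKM in GFP-negative and 35.1 and 3.81 FPKM in GFP-positive libraries (log2 change -3.36 ± 2.47). Retreg2, a paralogue of Retreg1, had 10.3 and 7.13 FPKM in GFP-negative and 73.9 and 11.1 FPKM in GFP-positive libraries (log2 change -2.98 ± 2.76), the opposite order of groups to Retreg1, though neither passed the test. Of the UFMylation genes, a ubiquitin-like pathway used in ER-phagy, 7 of 10 had fitted changes above 0 (median 0.80) and 6 had 0 counts in GFP-positive replicate 1. Ufsp1, a protease of the pathway, had 2.28 and 2.06 FPKM in GFP-negative libraries and 0 counts in both GFP-positive libraries (edgeR adjusted p = 1.0, unadjusted p = 0.0561), and Ufsp2 had 15.9 and 7.91 FPKM in GFP-negative and 66.4 and 6.24 FPKM in GFP-positive libraries. The ER stress genes divided evenly, with 10 of 20 above 0 and a median of -0.13. Sdf2l1, an ER chaperone cofactor, had 48.4 and 30.4 FPKM in GFP-negative and 269 and 78.4 FPKM in GFP-positive libraries, groups that did not overlap (log2 change -2.83 ± 2.35, edgeR adjusted p = 1.0), whereas Dnajc3, a cochaperone of the ER, had 15.4 and 37.7 FPKM in GFP-negative and 122 and 14.7 FPKM in GFP-positive libraries, with overlap.

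**Figure D4:**
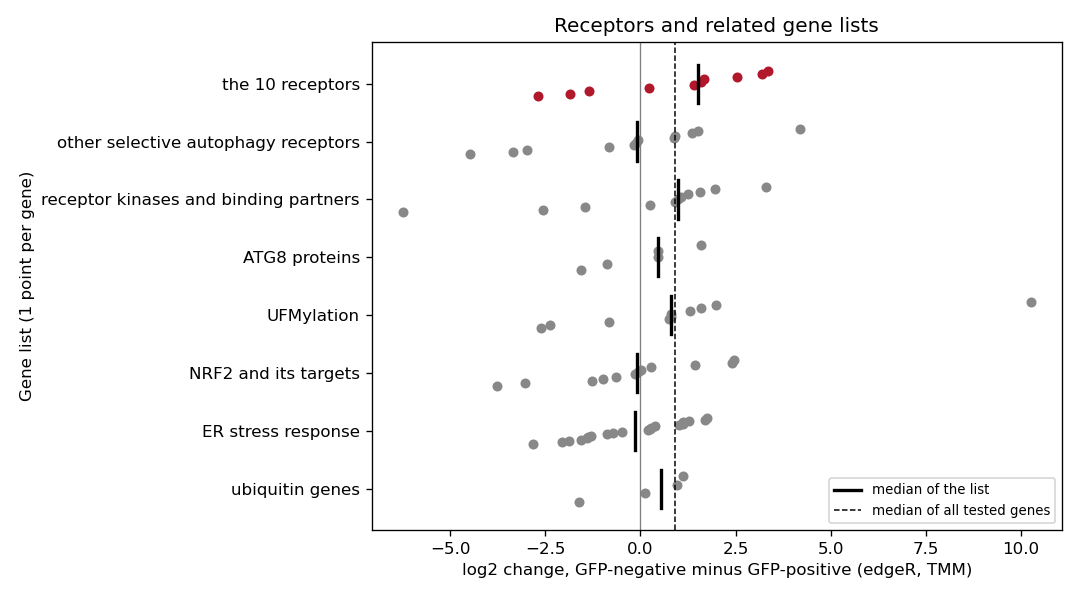
Fitted log2 change, GFP-negative minus GFP-positive, of each receptor (red) and of each tested gene of the related lists (grey), with the median of each list as a black bar and the median of all tested genes, 0.91, as a dashed line. The receptors lie on both sides of 0, from -2.70 for Calcoco1 to 3.36 for Tollip.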

How the data were processed

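The authors deposited whole-number counts and FPKM per gene symbol for 4 libraries, per the file headers. Per the labels' protocols, cDNA was primed with oligo(dT), made by template switching from picogram amounts of RNA, amplified by PCR and fragmented; strand is not kept. The tools and build named in the submitters' processing notes are HISAT2 2.2.1, StringTie 2.1.6, cutadapt 1.9, DESeq2, edgeR and mm10; the program that made the deposited counts and its annotation are not stated there. The deposited FPKM equalled counts divided by a gene length and the library total, within 5%, for 100% of the 3062 genes with at least 100 counts in every library.

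Counts were fitted in R 4.3.3 with edgeR 4.0.16 (filterByExpr, minimum count 10, 16301 genes kept; TMM; glmQLFit with group as the only term; glmQLFTest; threshold 0.05). An SE is the absolute log2 change over the square root of F. Alternatives were a replicate block, no filter, DESeq2 size factors, upper quartile scaling, library totals, DESeq2 1.42.0, limma 3.58.1 on log2 FPKM (pseudocounts 1 and 0.1), genes with counts in all 4 libraries, and leaving out each library. Positions are from GENCODE M21 and promoters from RefSeq. All receptors are named; from each related list, called genes or else the 2 with the smallest p are named, with Tbk1, Keap1, Nfe2l2, Nqo1, Epcam, Rb1 and Trp53. The rule picked a further gene, which is left out here. The members and lists were chosen with earlier results of these data known.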

Additional observations from a re-analysis of the deposited data

How the results depend on the processing

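The count of called receptors was 0 under every setting with all 4 libraries, and 0 to 5 with each library left out, the 5 coming without GFP-positive replicate 2. The count of called genes, 16, was 0 with upper quartile scaling (where 0 receptors also had an unadjusted p under 0.05), 63 with DESeq2's Wald test, 42 with limma on log2 FPKM at a pseudocount of 0.1, 5 among genes with counts in all 4 libraries, and 1 to 7601 with each library left out. The median log2 change of the receptors ranged from -0.47 to 9.15 with each library left out. The replicate numbers are not shown to pair the libraries: same-numbered libraries' deviations from the group means correlated at 0.033 across genes. With the replicate block 21 genes and 0 receptors were called.

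Signs changed between settings for genes that edgeR did not call with TMM scaling and all 4 libraries, and the cause was not tested. Ubb was called with opposite signs without each GFP-negative library. With upper quartile scaling the log2 change was -0.030 for Optn, -4.08 for Tax1bp1, -4.19 for Ubb and -5.15 for Epcam. For Nqo1 it was 3.44 with the replicate block, 0.13 with DESeq2 size factors, 0.28 with library totals, 0.13 with DESeq2's Wald test, and 0.29 and 1.38 with limma at pseudocounts of 1 and 0.1. With each library left out in turn the log2 change ranged from -1.10 to 8.87 for Nbr1, -11.74 to 12.33 for Optn, -6.17 to 0.028 for Calcoco1, -0.13 to 13.07 for Wdfy3, -7.89 to 6.83 for Ikbke, -3.27 to 0.46 for Ufsp2, -3.08 to 0.64 for Dnajc3, -1.49 to 2.01 for Ubb, -1.75 to 13.22 for Tbk1, -0.23 to 14.20 for Keap1, -1.06 to 9.70 for Nqo1 and -9.83 to 11.35 for Rb1. Ftl1 also passed with limma (log2 change -1.58 at both pseudocounts) and Ubb with library totals (log2 change 1.34). All planned settings were run. The wide SEs limit what can be seen in these libraries.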

Other observations

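Some receptor genes share exon sequence with another gene, and reads of a library that keeps no strand cannot be told apart there. An exon of Mrnip, on the opposite strand, overlaps Sqstm1 by 580 bases in GENCODE M21. Mrnip had 541 and 8125 counts in GFP-negative libraries and 0 and 1618 counts in GFP-positive libraries, against 43585 and 19429 counts of Sqstm1 in GFP-negative and 56803 and 59400 counts in GFP-positive libraries. Pigb, on the opposite strand from Ccpg1 with an exon overlap of 964 bases, had 1863 and 530 counts in GFP-negative and 7180 and 305 counts in GFP-positive libraries. Ccpg1 had 0 counts in GFP-positive replicate 1, the library where Pigb was highest. Gm44503, on the same strand as Ccpg1 with an overlap of 1397 bases, had 0 and 227 counts in GFP-negative and 6 and 165 counts in GFP-positive libraries. The part of shared reads in these values was not tested.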
